A study of Caenorhabditis elegans with 6 samples.

Results

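The genes described here are the major sperm protein genes and the other spermatogenesis genes of *C. elegans* that carry a sperm class name. They were chosen by name alone: every gene named *msp*, *ssp*, *ssq*, *nspd* or *spe* with a number, together with *fer-1*, *gsp-3* and *gsp-4*. The rule found 81 of the 20362 protein-coding genes in the deposited table, of which 31 are *msp*, 12 *ssp*, 4 *ssq*, 10 *nspd* and 21 *spe* genes. Poly(A)-enriched RNA of whole nematodes was sequenced in 3 libraries of wild-type N2 (Bristol), called WT, and 3 libraries of a *grh-1* overexpressor, called *grh-1* OEx. Animals of both groups grew for 64 h at 20 °C from eggs laid over a few hours and for 48 h more as young adults on *E. coli* OP50, with no heat shock. The *grh-1* OEx strain is line 1 (MIR260, risIs31), in which *grh-1* fused to *gfp* is driven by the *hsp-16.2* promoter, which responds to heat shock. It was made by bombardment of an *unc-119*-deficient strain, HT1593, and backcrossed to N2, and it is the only overexpressing line in the series. The study compared the groups to find genes regulated by GRH-1, the nematode Grainyhead transcription factor.

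A *C. elegans* hermaphrodite makes sperm as a late larva, stores them, and then switches its germ line to oocytes, whereas a male makes sperm throughout adult life. Major sperm protein (MSP) is the filament protein that moves the crawling sperm, and it is also the signal with which sperm set off oocyte maturation and ovulation. In developing spermatocytes MSP is packed into fibrous bodies that form together with Golgi-derived membranous organelles, and mature sperm no longer transcribe their genes.

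The libraries held between 14409044 and 25535026 counts, and 13736 genes passed the filter on low counts. The first principal component of all genes took 52.0% of the variance. *grh-1* itself measured 5.0, 5.63 and 6.17 CPM (counts scaled to a common library size, replicate 1 first) in WT and 7.65, 9.69 and 6.52 CPM in *grh-1* OEx, so that the groups did not overlap. This was a log2 fold change of 0.51 (standard error, SE, 0.21; Benjamini-Hochberg adjusted p = 0.709 in the edgeR quasi-likelihood test).

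WT replicate 3 stood apart from the other 5 libraries in the sperm genes. The 31 *msp* genes together reached 13.5, 60.3 and 610 CPM in the WT libraries, in replicate order, and 28.2, 86.9 and 35.8 CPM in those of *grh-1* OEx. The sum in WT replicate 3 was 45.2-fold that of WT replicate 1 and 10.1-fold that of WT replicate 2. Without that library, the 2 remaining WT sums, 13.5 and 60.3 CPM, enclosed 2 of the 3 *grh-1* OEx sums. Because the RNA comes from whole nematodes, fewer sperm-producing cells and less sperm RNA per cell cannot be told apart in any of these values.

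**Figure D1:**
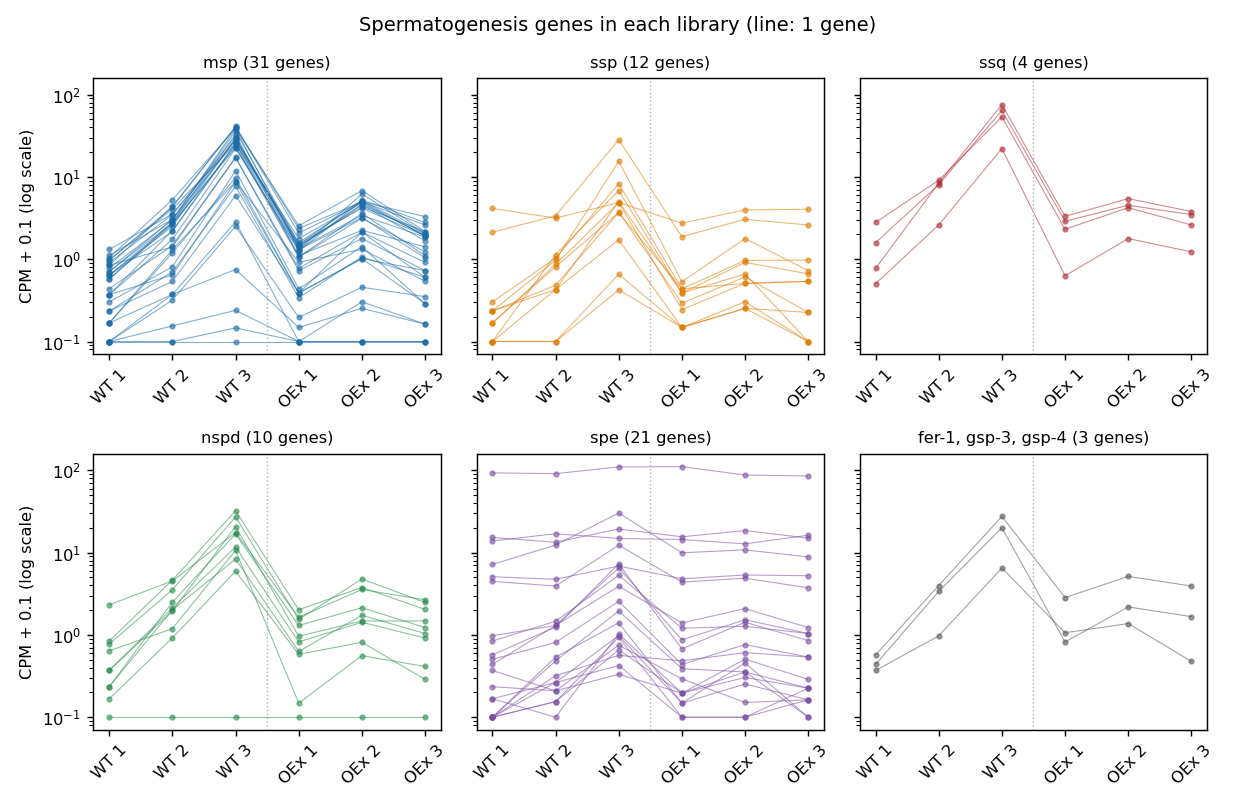
CPM plus 0.1 on a log axis for each sperm gene in each of the 6 libraries, with 1 panel for each gene class and 1 line for each gene. Lines join the values of a gene and do not give replicates an order. WT replicate 3 was the highest library for 75 of the 81 genes.

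WT replicate 3 was the highest of the 6 libraries for 75 of the 81 genes. Among the 56 that passed the filter it was highest for 54, and among all tested genes for 27.3%. The 6 exceptions were *spe-5*, *spe-9*, *spe-38* and *spe-39*, and *msp-32* and *nspd-8*, which had no counts in any library. At the other end, WT replicate 1 was the lowest library for 50 of the 81 genes, against 18.4% of all tested genes. Within *grh-1* OEx, replicate 2 was the highest library for 66 of the 81, against 36.9% of all genes in the table.

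The excess in WT replicate 3 was measured for each gene as the log2 ratio of CPM plus 0.5 in that library to the mean of the other 5 on the same scale. Over the 56 tested sperm genes its median was 3.37, a 10.3-fold excess, while over all tested genes it was 0.02. The ratio was at least 2 for 46 of the 56 sperm genes and for 2.32% of all tested genes, and the sperm genes made up 14.5% of the 318 genes at or above 2. The *msp* genes formed a tight group, with a median of 3.62 and a range from 2.99 to 4.11. The *ssq* genes had the highest median of the classes, 3.92, and the *spe* genes the lowest, 1.45.

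**Figure D2:**
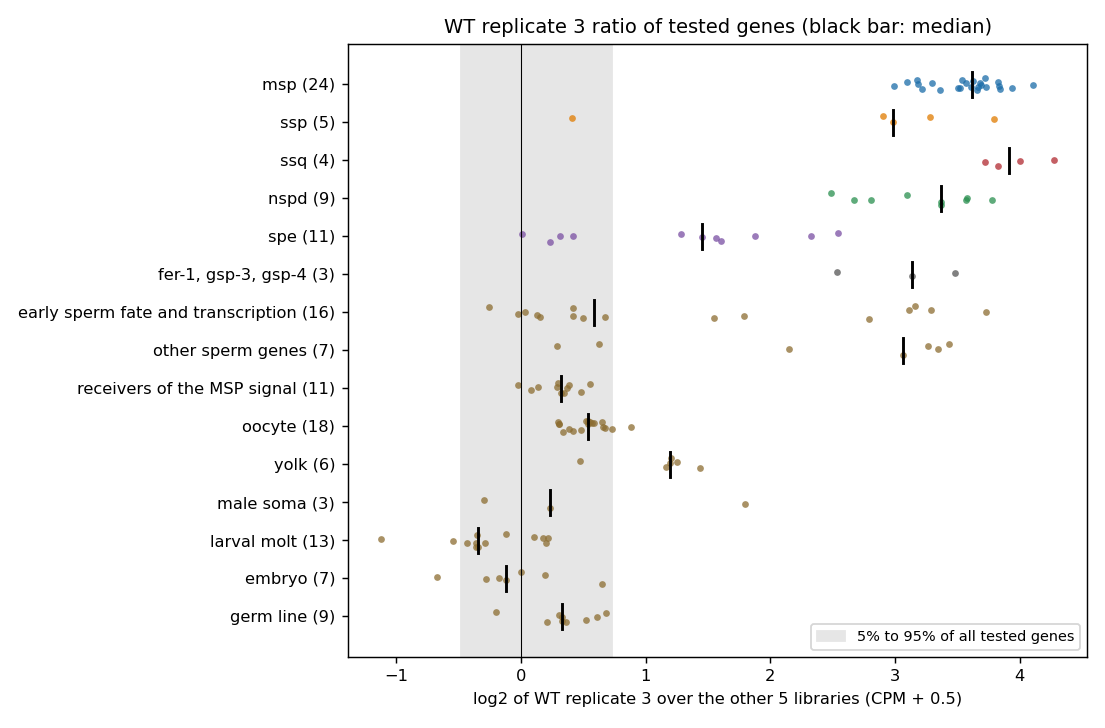
The log2 ratio of WT replicate 3 to the mean of the other 5 libraries (CPM plus 0.5) for each tested gene, by sperm gene class and by list of other genes. The grey band holds the 5th to the 95th percentile of all tested genes, and the *msp*, *ssq* and *nspd* points all lie above it.

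Between the groups, no sperm gene passed the test. The edgeR quasi-likelihood test, adjusted by Benjamini-Hochberg over all 13736 tested genes, called 0 of 56 lower and 0 of 56 higher in *grh-1* OEx, against 0.298% of all genes called lower and 0.146% called higher. At an unadjusted p under 0.05, 21 of the 56 were lower and 0 higher, against 4.44% of all genes lower and 2.18% higher. DESeq2 also called 0 of the 54 to which it gave an adjusted p, against 0.662% of all genes lower and 0.446% higher, with a smallest adjusted p of 0.289. At an unadjusted DESeq2 p under 0.05 there were 6 sperm genes, against 5.33% of all genes. The fitted log2 fold change was negative for 55 of the 56, against 52.4% of all genes, with a median of -2.16 beside -0.01 over all genes.

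Most of these negative values rested on WT replicate 3. Without it, 55 sperm genes were tested, the log2 fold change was positive for 40 and negative for 15, and their median was 0.14, while 50.8% of all genes were negative with a median of -0.0040. No sperm gene was called, against 0.972% of all genes, and 1 of 55 had an unadjusted p under 0.05, against 8.68%. Among the 55 tested genes the groups did not overlap for 0 in the lower and 1 in the higher direction, *spe-44*, against 11.3% of all tested genes in each. Without WT replicate 1, the library with the lowest sperm gene levels, the result moved the other way: 20 of 60 sperm genes were then called lower in *grh-1* OEx, against 1.49% of all genes. These 20 were 6 *msp*, 3 *ssp*, 4 *ssq* and 6 *nspd* genes and *gsp-4*, and no *spe* gene was among them. Of the 20, *ssp-31* and *nspd-9* passed the filter of this fit through the WT libraries alone, where they were high. Their calls are therefore a description and not support for a difference, and *ssp-31* was not tested with all 6 libraries. The groups were then separated, with *grh-1* OEx lower, for 21 sperm genes, against 8.23% of all genes. Leaving out WT replicate 2 or any *grh-1* OEx library gave 0 calls.

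**Figure D3:**
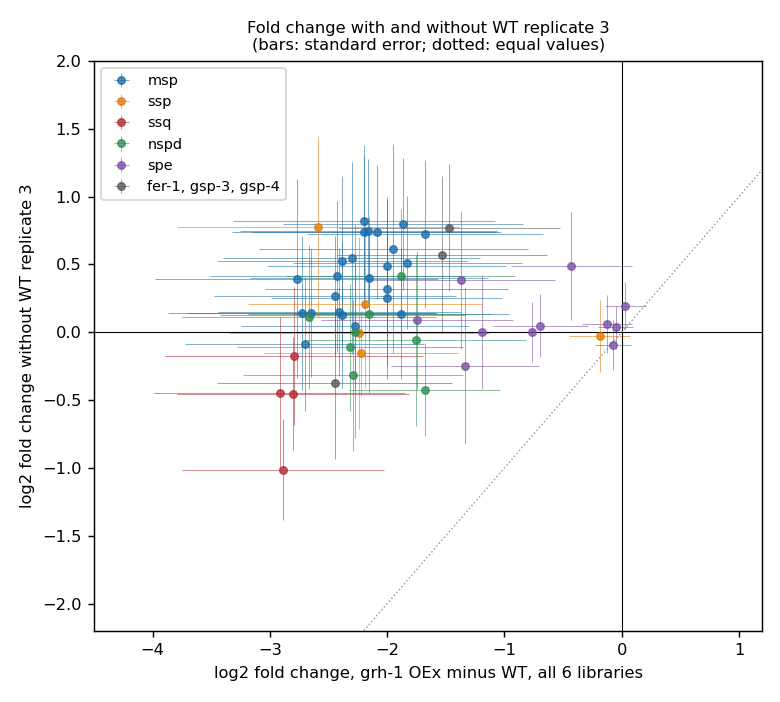
Log2 fold change (*grh-1* OEx minus WT) of 55 sperm genes with all 6 libraries on one axis and without WT replicate 3 on the other, with standard errors as bars and 1 colour for each class. With all libraries the class medians run from -2.85 to -0.69, and without WT replicate 3 from -0.45 to 0.57.

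The *msp* genes encode the MSP filament and signal protein in many nearly identical copies, so that a read from one copy can match several others, and how such reads were counted is not given in the sources used here. Values of single copies are therefore uncertain, and the sum over the family is the safer measure. Of the 31 copies, 24 were tested. *msp-31* (WBGene00003429, chromosome II, 4916179 to 4916562 of WBcel235) measured 0.945, 5.19 and 38.9 CPM in WT and 2.46, 6.73 and 2.07 CPM in *grh-1* OEx. The *grh-1* OEx values lay between the WT replicates, so the groups overlapped. Its log2 fold change was -2.0 (SE 0.99, edgeR quasi-likelihood adjusted p = 0.803), and 0.25 without WT replicate 3.

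*msp-36* stood at 0.743, 4.32 and 40.7 CPM in WT and 2.26, 4.90 and 3.20 CPM in *grh-1* OEx. *msp-81* stood at 0.878, 4.21 and 41 CPM in WT and 1.97, 4.90 and 1.82 CPM in *grh-1* OEx. In both copies WT replicate 1 was the lowest library and WT replicate 3 the highest, with all of *grh-1* OEx between them. The largest excess in WT replicate 3 among the *msp* genes was that of *msp-55*, at 0.473, 2.73 and 33 CPM in WT and 0.963, 3.52 and 1.00 CPM in *grh-1* OEx, followed by *msp-40* with a ratio of 3.94. The smallest among tested copies was that of *msp-56*, at 0.0675, 1.2 and 8.68 CPM in WT and 0.818, 1.22 and 0.439 CPM in *grh-1* OEx, and next came *msp-77* with a ratio of 3.10. Over the 24 tested copies the log2 fold changes ran from -2.77 to -1.67 with a median of -2.2, and without WT replicate 3 the median was 0.41, with 23 positive and *msp-78* at -0.09.

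The *ssp* genes encode sperm-specific class P proteins, small relatives of MSP with an MSP domain. Their sum was 6.82, 11.7 and 82.8 CPM in WT and 6.60, 12.6 and 9.66 CPM in *grh-1* OEx. Without WT replicate 3 the remaining values of the groups lay in nearly the same range. *ssp-10* stood at 2.03, 3.28 and 28.2 CPM in WT and 1.78, 2.96 and 2.51 CPM in *grh-1* OEx, a log2 fold change of -2.22 (SE 0.83, edgeR quasi-likelihood adjusted p = 0.649). *ssp-34*, with the largest ratio of the class, stood at 0.135, 0.875 and 15.5 CPM in WT and 0.433, 1.68 and 0.627 CPM in *grh-1* OEx. *ssp-35* was at 0 counts in WT replicate 1, where 3 counts would be 0.203 CPM, at 1.04 and 6.73 CPM in the other WT libraries, and 0.289, 0.816 and 0.565 CPM in *grh-1* OEx.

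*ssp-37* differed from the other tested *ssp* genes. It stood at 4.05, 3.06 and 4.78 CPM in WT and 2.65, 3.88 and 3.95 CPM in *grh-1* OEx, with a WT replicate 3 ratio of 0.41 against 2.90 to 3.80 for the other tested *ssp* genes. Its log2 fold change was -0.19 (SE 0.26, edgeR quasi-likelihood adjusted p = 1.0).

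The *ssq* genes encode sperm-specific class Q proteins, whose function is not established. All 4 lie on chromosome IV and all 4 were tested. *ssq-1* (WBGene00006050, 9852554 to 9853558) stood at 2.70, 9.02 and 53.6 CPM in WT and 2.21, 4.13 and 2.51 CPM in *grh-1* OEx. The groups overlapped only through WT replicate 1, which lay between *grh-1* OEx replicates 3 and 2. Its log2 fold change was -2.89 (SE 0.86, edgeR quasi-likelihood adjusted p = 0.384), and -1.01 without WT replicate 3 (unadjusted p = 0.0137, edgeR quasi-likelihood adjusted p = 0.384).

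*ssq-2* stood at 1.49, 7.98 and 64.2 CPM in WT and 2.79, 4.44 and 3.39 CPM in *grh-1* OEx. *ssq-3* stood at 0.405, 2.51 and 22 CPM in WT and 0.530, 1.68 and 1.13 CPM in *grh-1* OEx. *ssq-4* had the largest excess of all sperm genes in WT replicate 3, with 0.675, 8.31 and 75.8 CPM in WT and 3.23, 5.36 and 3.70 CPM in *grh-1* OEx. In all 3 genes WT replicate 1 was the lowest library and WT replicate 2 was above all of *grh-1* OEx. The log2 fold changes of the class ran from -2.92 to -2.80. Without WT replicate 3 all 4 stayed negative, with a median of -0.45, while 23 of 24 *msp* genes turned positive. Apart from *ssq-1* these values were small beside their errors: *ssq-2* -0.45 (SE 0.42), *ssq-3* -0.45 (SE 0.56) and *ssq-4* -0.18 (SE 0.51). Other classes held values of like size, such as *nspd-7* at -0.42 and *gsp-4* at -0.37, and of the tested *nspd* genes 4 were then negative and 4 positive.

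The *nspd* genes encode short peptides of the nematode-specific group D, whose function in sperm is not established. Their sum was 5.06, 22.5 and 151 CPM in WT and 8.76, 19.4 and 11.7 CPM in *grh-1* OEx. *nspd-2* stood at 0.743, 4.54 and 32.2 CPM in WT and 1.93, 3.67 and 1.94 CPM in *grh-1* OEx. *nspd-1* stood at 0.675, 3.44 and 27.1 CPM in WT and 1.44, 4.69 and 2.38 CPM in *grh-1* OEx. In *nspd-2* all of *grh-1* OEx lay between WT replicates 1 and 2, and in *nspd-1* replicate 2 of *grh-1* OEx lay above WT replicate 2. *nspd-5*, with the largest ratio in the class, stood at 0.270, 1.86 and 20.7 CPM in WT and 0.867, 1.38 and 1.38 CPM in *grh-1* OEx. *nspd-7*, with the smallest, stood at 2.23, 4.43 and 17.5 CPM in WT and 1.54, 3.47 and 2.57 CPM in *grh-1* OEx, and the next smallest was that of *nspd-10*, at 2.68.

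*nspd-9* was the only tested sperm gene whose groups did not overlap, where 6.14% of all tested genes were separated in that direction. It was picked out after its values were seen. It also passed the filter, 0.546 CPM by library totals in at least 3 libraries, through the WT libraries alone. Its separation and its test values are therefore a description and not support for a difference. *nspd-9* (WBGene00017808, chromosome III, 4830010 to 4830346) stood at 0.540, 1.09 and 10.6 CPM in WT and 0.0481, 0.459 and 0.314 CPM in *grh-1* OEx, from 8, 20 and 228 counts in WT against 1, 9 and 5. Its log2 fold change, -3.91 (SE 1.11), was the largest in size among the sperm genes, and its edgeR quasi-likelihood adjusted p, 0.348, was the smallest. Without WT replicate 3 its values in the groups still did not overlap, but its counts were below the filter, so that no test of it remained.

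The *spe* genes are named after mutants defective in spermatogenesis or in sperm function, and their products act at different steps. They were the least uniform class: 4 of the 11 tested members did not follow the other sperm genes. *spe-39*, whose product interacts with a VPS33 protein in membrane trafficking and is also used outside the germ line, stood at 93.3, 91.3 and 110 CPM in WT and 111, 87.8 and 85.4 CPM in *grh-1* OEx. *spe-5*, a B subunit of the vacuolar proton pump, stood at 13.8, 16.9 and 14.8 CPM in WT and 14.3, 12.7 and 16.2 CPM in *grh-1* OEx. *spe-44*, a SAND domain regulator that switches on sperm genes in spermatocytes, stood at 15.2, 13.3 and 19.3 CPM in WT and 15.5, 18.5 and 14.9 CPM in *grh-1* OEx. In these 3 genes the groups covered nearly the same range and no WT library stood apart. *spe-6*, a casein kinase 1 family kinase needed for MSP assembly, stood at 5.0, 4.65 and 6.78 CPM in WT and 4.72, 5.25 and 5.14 CPM in *grh-1* OEx. The log2 fold changes of the 4 genes lay between -0.12 and 0.03, with standard errors between 0.15 and 0.21, and *spe-44* was the only tested sperm gene with a positive value. The sign of each turned when single libraries were left out.

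The 7 other tested *spe* genes followed the pattern at reduced size, with WT replicate 3 ratios from 1.29 to 2.55. *spe-15*, a myosin VI that sorts material out of budding spermatids, stood at 7.09, 12.3 and 30.3 CPM in WT and 9.87, 10.7 and 8.78 CPM in *grh-1* OEx. *spe-41*, a TRPC channel that sperm need for fertilization, stood at 4.39, 3.83 and 12.3 CPM in WT and 4.28, 4.80 and 3.64 CPM in *grh-1* OEx. In both, WT replicate 3 was more than 2-fold above each other library and the rest overlapped. *spe-11*, a sperm-supplied factor that the embryo needs, stood at 0.338, 1.2 and 6.45 CPM in WT and 0.770, 1.43 and 0.941 CPM in *grh-1* OEx. *spe-26*, a kelch-repeat protein, stood at 0.743, 1.37 and 5.20 CPM in WT and 1.11, 1.17 and 0.941 CPM in *grh-1* OEx. Both had WT replicate 1 lowest and the 3 *grh-1* OEx libraries between it and WT replicate 3. *spe-46* had the largest ratio of the class, with 0.473, 1.15 and 7.19 CPM in WT and 0.578, 1.33 and 0.753 CPM in *grh-1* OEx. *spe-4*, a presenilin family protein of the membranous organelles, had the smallest of the 7, with 0.878, 1.2 and 3.81 CPM in WT and 1.30, 1.99 and 1.13 CPM in *grh-1* OEx. *spe-47*, which encodes a protein with an MSP domain, was at 0.405, 0.711 and 2.46 CPM in WT and 0.337, 0.663 and 0.439 CPM in *grh-1* OEx. In none of the 7 genes were the groups separated. The edgeR quasi-likelihood adjusted p of the tested *spe* genes was 0.782 or more.

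Several *spe* genes of sperm activation and fertilization had too few counts for the filter. *spe-9*, a transmembrane protein with EGF repeats that sperm need to enter the oocyte, had 0, 4 and 10 counts in WT and 8, 10 and 7 counts in *grh-1* OEx. *spe-38*, a tetraspan sperm protein, had 2, 2 and 5 counts in WT and 2, 8 and 3 counts in *grh-1* OEx. Besides *spe-5* and *spe-39*, these were the only *spe* genes in which WT replicate 3 was not the highest library in CPM. *spe-42*, a membrane protein of the DC-STAMP type, had 4, 2 and 14 counts in WT and 4, 1 and 1 in *grh-1* OEx. The activation genes *spe-8* (a tyrosine kinase), *spe-12*, *spe-19*, *spe-27* and *spe-29* had 60, 29, 21, 20 and 11 counts over all 6 libraries. *spe-10*, a palmitoyltransferase of the membranous organelles, had 44. None of these genes were tested, and differences between the groups were not detectable at this depth.

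*fer-1*, a ferlin that fuses the membranous organelles with the sperm surface, stood at 0.270, 0.875 and 6.41 CPM in WT and 0.963, 1.28 and 0.376 CPM in *grh-1* OEx. *gsp-3*, one of a pair of closely similar sperm-specific PP1 phosphatases, stood at 0.473, 3.88 and 27.5 CPM in WT and 2.74, 5.05 and 3.83 CPM in *grh-1* OEx. *gsp-4*, the other, stood at 0.338, 3.28 and 20 CPM in WT and 0.722, 2.09 and 1.57 CPM in *grh-1* OEx. All 3 genes had WT replicate 1 lowest and WT replicate 3 highest, and *grh-1* OEx between them. The log2 fold changes were -1.53, -1.47 and -2.45, with standard errors of 0.90, 0.94 and 1.00, and without WT replicate 3 they were 0.57, 0.77 and -0.37. Reads shared by *gsp-3* and *gsp-4* could be split between them in counting.

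In the 25 sperm genes left untested, the counts over all libraries ran up to 163, and WT replicate 3 was the highest library for 21. *msp-32* and *nspd-8* had 0 counts in each library, which allows a level of up to 0.139 to 0.203 CPM (3 counts per library, counting error only). Reads that match a near-identical copy may have gone unassigned, so this does not show that these copies are silent.

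Per length, the sperm genes of WT replicate 3 were led by *nspd-2*, with a deposited FPKM, a count scaled by library and gene length, of 88.0, and by *msp-31* with 85.4. *msp-81* followed with an FPKM of 76.0, *msp-36* with 76.0 and *spe-39* with 75. In WT replicate 1 the order was another one. *spe-39* led there with an FPKM of 77.4, followed by *spe-44* with 9.58 and *ssp-37* with 9.23, while *nspd-2* stood at 2.47 and *msp-31* at 2.53. Of all counts, the 81 genes took 0.0179% in WT replicate 1, 0.0299% in WT replicate 2, 0.113% in WT replicate 3 and between 0.0222% and 0.0293% in *grh-1* OEx.

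The *msp* sum was then used as a yardstick for how much spermatogenesis RNA a library held, a step chosen after the values were seen. The *ssq* genes together had 39, 46.1 and 35.3 counts for every 100 *msp* counts in WT and 31.1, 18.0 and 30 in *grh-1* OEx, so that the groups did not overlap on this ratio. Among all tested genes 0.146% were separated in this direction on it, but most genes do not follow the *msp* sum. *ssq-1* had 20, 15 and 8.78 in WT and 7.86, 4.76 and 7.02 in *grh-1* OEx, also with no overlap, and the ratio of *ssq-2* was separated too while those of *ssq-3* and *ssq-4* were not. *nspd-9* had 4.0, 1.81 and 1.73 in WT and 0.171, 0.528 and 0.877 in *grh-1* OEx. The sums of the *ssp* and of the *nspd* genes overlapped on the same ratio.

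With the log2 *msp* sum as a covariate in the edgeR fit, 2 of the 32 tested sperm genes outside *msp* were called lower in *grh-1* OEx, against 0.91% of all genes, and 0 were called higher. These were *ssq-1*, with a log2 fold change of -1.33 (SE 0.22, edgeR quasi-likelihood adjusted p = 0.000306), and *nspd-9*, with -2.13 (SE 0.49, adjusted p = 0.0151 in the same edgeR fit). In the fit without the covariate neither passed the test, and the covariate itself was taken from the same libraries. *nspd-9* had passed the filter only through the WT libraries, where it was high. WT replicate 1 held only 200 *msp* counts, which limits the precision of its ratios.

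**Figure D4:**
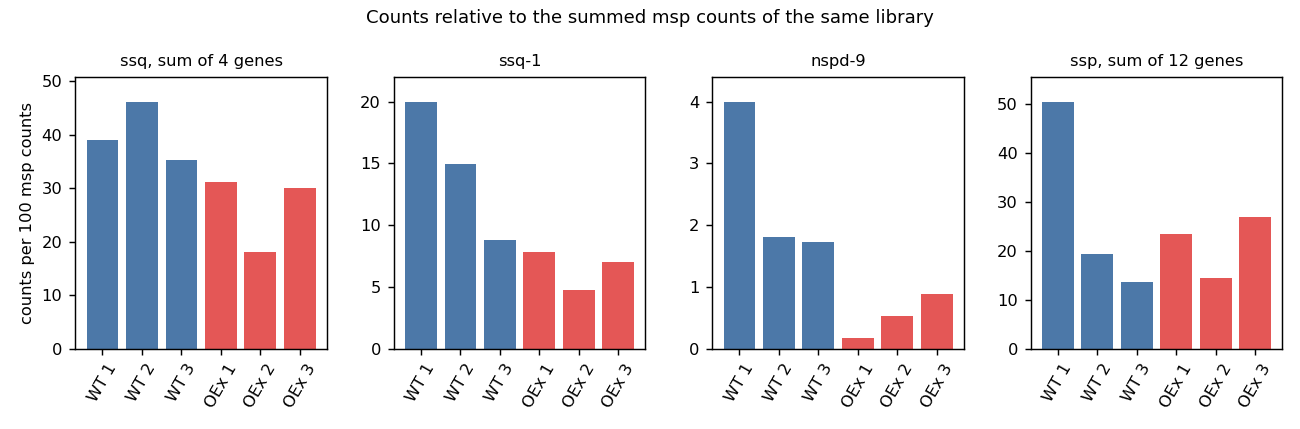
Counts for every 100 *msp* counts in each of the 6 libraries for the *ssq* sum, *ssq-1*, *nspd-9* and the *ssp* sum, with 1 bar for each library. The *ssq* sum lies between 35.3 and 46.1 in WT and between 18.0 and 31.1 in *grh-1* OEx, while the *ssp* sums overlap.

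Position and exon structure differed between the classes. Chromosome IV held 37 of the 81, or 45.7%, where it holds 16.3% of the genes in the table, and the X chromosome held 0, where it holds 13.8%. The *msp* genes lay on chromosome IV (18) and chromosome II (13) alone. When members less than 500 kb apart were joined, 12 of the 81 fell in one stretch of chromosome II (4785861 to 5200222), 15 in one of chromosome IV (4994325 to 5316944) and 18 in another of chromosome IV (9688982 to 10738658). The first stretch of chromosome IV holds *ssq-2* and *ssq-4*, and the second holds *ssq-1* next to *ssp-10*. In the Ensembl annotation of WBcel235 (release 115), each of the 31 *msp* and 10 *nspd* genes has 1 exon and each *ssq* gene 3, while the *spe* genes have up to 18. Of the 81 genes, 14 overlap the span of another coding gene, and for 9 of them such a gene lies on the other strand. Overlap was taken over whole gene spans and not over exons. Where exons overlap, strand cannot separate the reads, because the kit does not mark it.

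The genes that act before and around the sperm classes fell into the same pattern only in part. The list of 19 genes of sperm fate and sperm transcription also holds *spch-1*, *spch-2*, *spch-3*, *smz-1* and *smz-2*, which encode chromatin and PDZ proteins of sperm. Of the 19 genes, 16 were tested and 0 were called in either direction. At an unadjusted edgeR p under 0.05, 1 was lower, against 4.44% of all genes: *spch-1*, which encodes a sperm chromatin protein. *spch-1* stood at 0.473, 2.79 and 23.0 CPM in WT and 1.11, 1.84 and 0.941 CPM in *grh-1* OEx. *alg-4*, an Argonaute of the sperm small RNA pathway, stood at 0.270, 1.86 and 14.4 CPM in WT and 0.674, 2.60 and 0.753 CPM in *grh-1* OEx. *smz-1* and *smz-2*, which encode sperm PDZ proteins, had ratios of 3.11 and 2.79 in WT replicate 3. *alg-3*, the partner of *alg-4*, had a ratio of 3.16, and *fog-3*, which sets the sperm fate, stood at 0.473, 1.26 and 3.16 CPM in WT and 1.01, 0.765 and 0.439 CPM in *grh-1* OEx. By contrast *fog-1*, an RNA-binding protein that also acts in the sperm fate, stood at 14.8, 15.5 and 23.5 CPM in WT and 18.7, 18.3 and 15.4 CPM in *grh-1* OEx, and *elt-1*, a GATA factor, at 21.8, 22.9 and 22.1 CPM in WT and 24.9, 20 and 18.5 CPM in *grh-1* OEx. *alg-3*, *fog-3*, *fog-1* and *elt-1* were chosen after their values were seen. In *fog-1* and *elt-1* the groups overlapped and WT replicate 3 did not stand apart as it did in *spch-1*.

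Of 11 further sperm genes outside the naming rule, 7 were tested and 0 were called. Their median log2 fold change was -1.88, and their median ratio in WT replicate 3 was 3.06. They include *msd-2* and *msd-4*, with MSP domains, and *gipc-1* and *sss-1*, the 4 with the smallest unadjusted p, between 0.0595 and 0.0739. *gipc-1* stood at 1.49, 6.56 and 45.2 CPM in WT and 2.94, 7.24 and 4.45 CPM in *grh-1* OEx. The 11 genes through which the oocyte and the gonadal sheath receive or pass on the MSP signal had only a small excess in WT replicate 3. Their median ratio was 0.32 (-0.02 to 0.56), beside 0.02 over all tested genes. WT replicate 3 was the highest library for 5 of the 11. As a share of all counts, with no TMM factor, they took 0.234% in WT replicate 3 and between 0.208% and 0.243% in the other libraries. The excess therefore depends on the normalization. Between the groups 0 were called, 0 had an unadjusted edgeR p under 0.05, and their median log2 fold change was 0.01. Without WT replicate 3 the groups were separated for 5 of the 11, all higher in *grh-1* OEx, against 11.3% of all genes. This was not particular to the receivers. Of the 18 oocyte genes described below, 10 were then separated as higher and 2 as lower, and of the 9 germ line genes 5 as higher and 0 as lower. The receiver and oocyte lists share *oma-1* and *oma-2*. Of the 11 receivers, *inx-22*, a gap junction protein of the gonad, stood at 158, 121 and 182 CPM in WT and 151, 132 and 135 CPM in *grh-1* OEx. Its groups overlapped with and without WT replicate 3, so it was not among the 5.

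Markers of other cells and stages moved with WT replicate 3 to different degrees. All 18 oocyte genes were highest in that library, with a median log2 ratio of 0.54 and summed levels of 16276, 15712 and 25287 CPM in WT and 17027 to 18599 CPM in *grh-1* OEx. The 6 yolk protein genes summed to 37420, 47446 and 87587 CPM in WT and 42581 to 60989 CPM in *grh-1* OEx, with a median ratio of 1.2. The 9 genes of the mitotic and meiotic germ line had a median ratio of 0.33, beside 0.02 over all tested genes. The TMM factor of WT replicate 3 was 0.846, against 1.01 to 1.07 in the other libraries. It raises these ratios over those from library totals alone. Genes of the larval molt (13) had a median ratio of -0.34 and those of the embryo (7 tested of 9) of -0.12. None of these lists held a gene called by edgeR in the comparison of the groups with all 6 libraries. Without WT replicate 3, 2 of the 6 yolk genes were called and 0 in the other lists, against 0.972% of all genes in either direction. At an unadjusted edgeR p under 0.05 with all libraries, 1 of 18 oocyte and 3 of 6 yolk genes were lower and 3 of 13 molt genes higher. For the germ line it was 0 of 9 and for the embryo 0 of 7 genes. Over all genes the shares were 4.44% lower and 2.18% higher.

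Male somatic genes, which mark males in a population of hermaphrodites, were scarce in every library. The 11 genes summed to 16.8, 19.3 and 29.2 CPM in WT and to 14, 15.4 and 18.8 CPM in *grh-1* OEx, and most of each sum came from *swm-1*, a protease inhibitor that keeps male sperm inactive, at 14.2, 15.9 and 16.7 CPM in WT and 11.6, 12.5 and 16.9 CPM in *grh-1* OEx. Of the 11, 3 were tested, 0 were called, and 1 was lower at an unadjusted edgeR p under 0.05, against 4.44% of all genes. That gene, *try-5*, a seminal fluid protease, stood at 1.15, 0.984 and 3.76 CPM in WT and 0.385, 0.867 and 0.439 CPM in *grh-1* OEx. WT replicate 3 was the highest library for 7 of the 11, against 27.3% of all tested genes, and *swm-1* was not among the 7. *pkd-2*, a channel of male sensory neurons, had 1, 1 and 34 counts in WT and 5, 0 and 0 in *grh-1* OEx. *cwp-1*, expressed in the same neurons, had 0, 3 and 32 counts in WT and 0 in each *grh-1* OEx library, and *lov-1*, the partner of *pkd-2*, had 0, 0 and 7 counts in WT and 1, 1 and 0 in *grh-1* OEx. *mab-3*, a regulator of male development, had 7, 12 and 68 counts in WT and 7, 10 and 7 in *grh-1* OEx. These last 4 genes were chosen after their values were seen, all from the 7 that were highest in WT replicate 3. They do not stand for the whole list, whose other members are not given here. The part of males, or of animals of another stage, in the sperm gene levels of WT replicate 3 was not tested.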

How the data were processed

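Whole nematodes gave 3 WT and 3 *grh-1* OEx RNA libraries, which the methods call independent biological samples. Samples were grouped by genotype as labelled. The authors enriched poly(A) RNA (TruSeq kit v2, not stranded), trimmed the reads, aligned them to WBcel235 with STAR and counted reads by gene with Subread's featureCounts. FastQC and DESeq2 are also named in the submitters' notes. Versions, and the treatment of reads with several matches, are not given in the sources used here. The deposited raw counts were tested, and the FPKM values deposited by the authors were used only for levels per length. The 6 deposited normalized count columns and the p-values, adjusted p-values and log2 ratios of the authors' own comparison were not used.

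Counts were tested with edgeR 4.0.16 (limma 3.58.1, R 4.3.3): glmQLFit and glmQLFTest, TMM factors, filterByExpr with a minimum count of 10 (here 0.546 CPM in at least 3 libraries) and a minimum total of 15, and Benjamini-Hochberg adjustment over 13736 genes at 0.05. Adjusted p-values come from this test except where DESeq2 1.42.0 is named. With 1 library left out, the filter asked for only as many libraries as the smaller group then held. CPM used TMM library sizes, with a pseudocount of 0.5 CPM for the WT replicate 3 ratio. Totals per library were 14409044 to 25535026 counts, with a biological coefficient of variation of 0.21. No pair of libraries within a group was a copy, the smallest chi-square per degree of freedom being 16.4. The scripts were tested on simulated data. Genes were named by established role, by highest CPM and by largest and smallest WT replicate 3 ratio in each class, and by smallest p in other lists. Some genes of the lists were not matched in the table or are not reported here. Members, lists and tests were chosen with earlier results of these data known. Alternatives were DESeq2, RLE and upper-quartile factors, library totals, other filters and pseudocounts, a replicate block and each library left out. The *msp* covariate was added after seeing the data. Positions are those of the deposited table.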

Additional observations from a re-analysis of the deposited data

How the results depend on the processing

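Leaving out 1 library at a time gave 0 to 20 sperm genes lower and 0 higher in *grh-1* OEx, 20 only without WT replicate 1, and the *msp* covariate gave 2 lower. Separated groups, in either direction, numbered 1 to 21 under the same omissions, and 0 with at least 10 counts in every library. The median log2 fold change ranged from -2.65 to 0.14 over all tested sperm genes, from -2.91 to 0.41 for *msp*, -2.70 to -0.0047 for *ssp*, -3.32 to -0.45 for *ssq*, -2.76 to -0.028 for *nspd*, -0.87 to 0.048 for *spe* and -1.98 to 0.57 for *fer-1*, *gsp-3* and *gsp-4*. The highest values are those without WT replicate 3. The *spe* median was -1.12 with no filter and -0.29 with at least 10 counts in every library.

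Log2 fold changes over the omissions of 1 library ranged as follows, with a positive value only without WT replicate 3: *spe-4* (-0.71 to 0.49), *spe-6* (-0.17 to 0.061), *spe-11* (-1.81 to 0.39), *spe-15* (-1.06 to 0.0026), *spe-26* (-1.55 to 0.0050), *spe-41* (-0.92 to 0.048), *spe-46* (-2.17 to 0.089), *fer-1* (-1.98 to 0.57), *gsp-3* (-1.96 to 0.77), *msp-31* (-2.73 to 0.25), *msp-36* (-2.64 to 0.40), *msp-40* (-3.18 to 0.74), *msp-55* (-3.62 to 0.14), *msp-56* (-2.50 to 0.32), *msp-77* (-2.93 to 0.55), *msp-81* (-3.02 to 0.15), *ssp-34* (-3.38 to 0.78), *nspd-1* (-2.46 to 0.41) and *nspd-5* (-3.15 to 0.11). For *spe-5* (-0.14 to 0.068), *spe-39* (-0.18 to 0.044) and *spe-44* (-0.065 to 0.19) other omissions turned the sign: *spe-5* without WT replicate 2 (0.068) or *grh-1* OEx replicate 2 (0.011), *spe-39* without WT replicate 3 (0.036) or *grh-1* OEx replicate 2 (0.0023) or 3 (0.044), and *spe-44* without WT replicate 2 (-0.029) or *grh-1* OEx replicate 2 (-0.065). With the *msp* covariate, *spe-4* was 0.22, *spe-11* 0.087, *fer-1* 0.18, *gsp-3* 0.56, *ssp-34* 0.32 and *nspd-1* 0.094. The cause of these changes was not tested.

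Same-numbered libraries did not deviate together (correlations 0.16, -0.04 and -0.16), so the numbers were not taken as pairs, and not every library correlated best with its own number. With the replicate block the median log2 fold change was -1.0 over all tested sperm genes, -0.94 for *msp*, -1.25 for *ssp*, -1.67 for *ssq*, -1.24 for *nspd*, -0.49 for *spe* and -0.63 for *fer-1*, *gsp-3* and *gsp-4*. With it 0 sperm genes were called, 4 had an unadjusted p under 0.05, and 42 of all genes were lower and 10 higher, against 41 and 20 without it. The median WT replicate 3 ratio was 2.63 with a pseudocount of 2 CPM, 3.81 with 0.1 CPM and 2.90 with no filter, and 3.09 to 3.59 when any of the other 5 libraries was left out. With library totals alone in place of TMM factors it was 3.09. Genes with few counts, the untested *spe* genes among them, are limited by depth.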
